A study of Homo sapiens with 26 samples.

Results

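The genes described here encode the peptidases that remove, trim and degrade mitochondrial presequences. They were chosen by name: PMPCA and PMPCB, the α and β subunits of the mitochondrial processing peptidase (MPP); MIPEP and XPNPEP3, which trim the new N terminus after MPP has acted; IMMP1L and IMMP2L, the subunits of the inner membrane peptidase; and PITRM1, which degrades the released presequence peptides. They are 7 of the 60663 genes in the RNA-seq tables, and all 7 are listed in both kinds of data. The question asked of them was whether PMPCB follows its partner PMPCA in local translation and in mRNA location.

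Most matrix proteins are made with an N-terminal presequence that leads them through the translocases of the outer and inner membranes. MPP cuts it off in the matrix: PMPCB holds the zinc site and PMPCA holds the substrate, and neither is active without the other. MIPEP and XPNPEP3 remove further residues from some of the products. The inner membrane peptidase acts on the other side of the inner membrane, facing the intermembrane space. PITRM1 has the same fold as MPP and clears the free peptides.

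The data are LOCL-TL measurements in HEK293T cells, a human embryonic kidney line, in which a blue-light-activated biotin ligase (LOV-BirA) labels Avi-tagged ribosomes near a chosen place and streptavidin pulls them down. In all cells RPL29, a protein of the large subunit, carried the Avi tag at its own locus. Ribosome footprints were sequenced with LOV-BirA at the ER (fused to Sec61β, driven by an SFFV promoter), at the outer mitochondrial membrane, OMM (fused to the OMP25 transmembrane domain, EF1α promoter), or free in the cytosol, with 2 replicates per location. Whole transcripts on ribosomes labelled at the OMM were sequenced by RNA-seq in wild-type cells with a negative control gRNA (WT), in AKAP1 null and LARP4 null cells, with 2 replicates each, and in cells that were not treated with cycloheximide (CHX), with 1 replicate and a shorter light pulse. The footprint lysates and the first 3 RNA-seq groups are taken as CHX-treated from the study's text. The genotype of the cells without CHX is not given in the labels. Each lysate gave a total input and a pulldown library, which makes 26 libraries from 13 lysates. The LOV-BirA lines were sorted polyclonal lines and each null genotype was 1 monoclonal line, so a difference between genotypes is also a difference between clones; the replicates are not said to be separate cultures, and p-values measure the spread between these lysates only. Enrichment is the log2 ratio of pulldown to total input after division by each library's total, and a value of 0 means the same share in both.

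Totals ran from about 1025110 to about 19539500 footprints in coding sequence and from about 38347600 to about 100841000 counts in RNA-seq, with the smallest library an OMM pulldown. Transcripts of the HEK293T markers LIN28B, PAX2, KRT18 and VIM were present in each of the 7 RNA-seq total inputs. Those of leukocytes, liver, erythroid cells and cardiac muscle (PTPRC, ALB, HBB, MYH7) did not exceed 0.156 CPM there (counts scaled by library depth to a common total). AKAP1 stood at 32.2 and 20.3 CPM in the 2 AKAP1 null total inputs and at 86.3 to 142.0 CPM in the other 5, and LARP4 stood at 79.3 and 74.0 CPM in the LARP4 null total inputs and at 210.6 to 247.4 CPM in the other 5. A disrupted gene need not lose its mRNA, so these values check the labels and not the loss of protein.

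Sequences that bear on the results are given first, from GENCODE release 44 on GRCh38, read along the coding strand. The start of the PMPCB coding sequence is shown because, by this annotation, it is the only part of the reference reading frame that enters its CDS count, and the same length of PMPCA is shown beside it, with the start codon in capitals. The PMPCB stretch lies in exon 1 at chr7:103297460-103297558 (+ strand) and the PMPCA stretch spans exons 1 and 2 between chr9:136410669-136412024 (+ strand).
PMPCB: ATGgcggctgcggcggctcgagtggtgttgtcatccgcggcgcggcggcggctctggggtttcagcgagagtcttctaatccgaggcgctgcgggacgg
PMPCA: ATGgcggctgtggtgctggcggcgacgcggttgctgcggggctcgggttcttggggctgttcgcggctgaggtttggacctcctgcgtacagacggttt

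The zinc sites are shown because they distinguish PMPCB from its partner PMPCA. Each stretch holds the codons of the motif with 6 codons on either side, and capitals mark the codons of the metal-binding histidines and of the catalytic glutamate. The inverted zinc-binding motif (histidine, any 2 residues, glutamate, histidine) was found once in PMPCB, at codon 101 of 489, and once in PITRM1. The PMPCA line is the stretch that aligned with the PMPCB motif, with the aligned codons in capitals; neither this motif nor the usual zinc-binding motif (histidine, glutamate, any 2 residues, histidine) was found anywhere in PMPCA. MIPEP held the usual motif once, at codon 495 of 713. XPNPEP3, IMMP1L and IMMP2L held neither.
PMPCB: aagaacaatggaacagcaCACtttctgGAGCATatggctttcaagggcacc
PMPCA: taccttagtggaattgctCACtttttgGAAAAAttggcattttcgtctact
PITRM1: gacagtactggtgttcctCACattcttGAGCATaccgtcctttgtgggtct
MIPEP: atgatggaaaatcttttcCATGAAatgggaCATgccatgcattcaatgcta

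These lie at chr7:103299485-103300183 (exons 3 and 4 of PMPCB), chr9:136412525-136412815 (exons 3 and 4 of PMPCA), chr10:3166305-3166355 (exon 4 of PITRM1, - strand) and chr13:23837580-23837630 (exon 13 of MIPEP, - strand). PMPCA and PMPCB were 32.4% identical over 475 aligned residues. PMPCB was closer to UQCRC1, a core subunit of respiratory complex III with the same fold, at 55.5% over 479 residues. IMMP1L and IMMP2L were 32.3% identical over 161 residues.

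The deposited CDS counts did not cover the members evenly, and this came before any comparison. For each gene the authors' counting program uses only positions that have the same annotation in every isoform that covers them. A position that is coding in some isoforms and untranslated in others thus enters neither the CDS count nor a UTR count. The study also masked positions where reads cannot be placed uniquely, and the isoform rule applied below leaves this mask out. The CDS count rested on 1716 positions for MIPEP, whose reference coding sequence is 2142 bases long (80.1%), and on 1122 for PMPCA against 1578 bases (71.1%). It rested on 441 positions for PMPCB, whose coding sequence is 1470 bases long (30.0%), on 272 for XPNPEP3 (17.8%), on 211 for IMMP1L (42.1%) and on 532 for PITRM1 (17.1%). For IMMP2L the 745 positions were more than the 528 bases of the reference coding sequence, since coding exons of other isoforms are added. Such exons can enter the counts of other members too. These percentages therefore compare lengths and are not the counted share of the reference frame. The median over all genes with a reference coding sequence was 86.3%, and over 930 nuclear-encoded mitochondrial genes it was 68.2%.

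When the same rule was applied to GENCODE release 44, the counted part of the reference reading frame was codons 1 to 33 of PMPCB, codons 1 to 169 of PMPCA and codons 1 to 61 of XPNPEP3, and no codon of PITRM1. Of all positions the rule gave in that release, 99 of 373 lay in the reference coding sequence for PMPCB. For PMPCA they were 506 of 619, for XPNPEP3 181 of 314 and for PITRM1 0 of 738. The rest lay in coding exons of other isoforms, so CDS footprints of PMPCB need not come from codons 1 to 33. The zinc site of PMPCB lay outside its counted part in that release. The authors used an older release, and the rule gave 373 positions for PMPCB where the files have 441. For PMPCA it gave 619 against 1122, so codons 1 to 169 need not be its whole counted part. The rule gave 2142 positions against 1716 for MIPEP, 314 against 272 for XPNPEP3, 387 against 211 for IMMP1L and 738 against 532 for PITRM1. Only for IMMP2L was the number the same, 745. These codon limits are therefore approximate.

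The footprints followed these limits. Over the 12 footprint libraries together, 98.1% of the footprints on exons of MIPEP lay in its counted CDS, 88.6% of those of IMMP2L, 65.4% of those of IMMP1L, 54.1% of those of PMPCA and 31.4% of those of XPNPEP3. For PMPCB the share was 5.78%, and 94.2% of its 28430.5 exon footprints lay in no region of fixed annotation. The 5′ and 3′ UTR counts held 0.0458% and 0.0211% of them. PITRM1 had 17027 exon footprints, of which 99.9% lay in no such region, and its CDS count was between 0 and 4.8 in every library. PITRM1 is thus unmeasured in CDS counts although it is among the better covered members on exons.

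**Figure D1:**
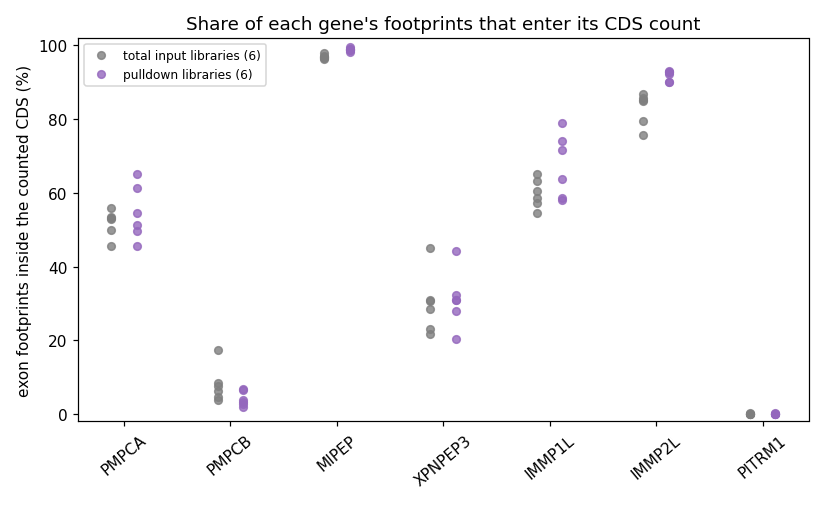
Share of each member's exon footprints that fall in its counted CDS, in percent, for the 6 total input libraries (grey) and the 6 pulldown libraries (purple) of ribosome profiling, 1 point per library. PMPCB lies between 1.90 and 17.4% and PITRM1 near 0, whereas MIPEP lies above 96%.

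Both counts are therefore given. CDS counts follow the study's own definition of enrichment and exon counts include UTRs, and tests on each were adjusted over all genes tested on that count. The codon-level reads that would show where on PMPCB the footprints lie were not analysed here.

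Per counted exon length, the MPP genes were the most translated members. In the 6 total inputs the deposited exon RPKM, which divides footprints by counted exon length and library depth, was 16.9 to 26.1 for PMPCB (median 19.5) and 14.9 to 24.2 for PMPCA (median 19.5), so their ranges overlapped. By median XPNPEP3 followed at 7.95 (5.85 to 8.11), MIPEP at 7.10 (4.53 to 9.29) and PITRM1 at 5.71 (4.84 to 7.46), and these 3 ranges overlapped as well. IMMP1L was at 3.70 (3.26 to 5.18), below every value of XPNPEP3. IMMP2L was the least translated, at 0.800 (0.538 to 3.79), with 34 to 153 exon footprints per total input. Exon lengths include UTRs and the exons of every isoform. MIPEP had 2826 counted exon positions against 2142 coding bases, PITRM1 11959 against 3114 and IMMP1L 2893 against 501. The order of these genes therefore depends on the length used.

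At the OMM, footprints of PMPCA, MIPEP and, on exons, PITRM1 and PMPCB were enriched more than 4-fold, whereas XPNPEP3 did not pass the test and IMMP1L passed it on exons only, when scaled by library totals. On CDS counts PMPCA had 613 and 732 footprints in the 2 total inputs and 1241 and 3036 in the pulldowns, which gave 10.1-fold and 9.02-fold enrichment once the smaller pulldown libraries were taken into account. Its fitted log2 enrichment was 3.25 ± 0.11 (SE, adjusted p = 1.79e-13, edgeR quasi-likelihood). This placed PMPCA at rank 5 of 691 nuclear-encoded mitochondrial genes tested.

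MIPEP, the octapeptidyl peptidase, was enriched 6.69-fold and 5.49-fold on CDS counts, with a fitted log2 value of 2.59 ± 0.13 (adjusted p = 2.27e-11, rank 15 of 691). Because nearly all of its exon footprints lie in its CDS, exon counts gave almost the same value, 2.56 ± 0.12.

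PMPCB was enriched less than PMPCA on CDS counts, which held 5.78% of the exon footprints of PMPCB over the 12 footprint libraries. PMPCB had 70.9 and 76.1 CDS footprints in the total inputs and 35.0 and 71.9 in the pulldowns, an enrichment of 2.47-fold and 2.06-fold. The fitted log2 value was 1.15 ± 0.22 (adjusted p = 0.000235), at rank 129 of 691. Without the term for the shared lysate the call was lost (adjusted p = 0.136), at nearly the same value of 1.16. The gap to PMPCA, PMPCB minus PMPCA, was -2.02 and -2.13 in the 2 lysates.

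On exon counts the gap was much smaller. PMPCB had 1150 and 1628 exon footprints in the total inputs and 1263 and 3784 in the pulldowns, which is 5.46-fold and 5.02-fold, and its fitted log2 value was 2.39 ± 0.09 (adjusted p = 5.07e-13, rank 43 of 828). PMPCA on the same count was at 8.62-fold and 7.30-fold, with 2.99 ± 0.09 (rank 17 of 828). The difference between the partners on exons was -0.66 and -0.54 in the 2 lysates, so PMPCA stayed above PMPCB in both.

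The shift of PMPCB between the counts, 1.24 on the log2 scale, was exceeded by 0.386% of the 6742 genes tested both ways at the OMM. Of these genes 45 rose by more than 1 and 30 of the 45 were nuclear-encoded mitochondrial genes. UQCRC1, whose counted part in release 44 was codons 1 to 51, shifted by 1.43, from 1.82 to 3.25. Mitochondrial genes of more than 200 codons were split by where their counted part ends. Of the 46 that end within the first 100 codons 10 shifted by more than 1, against 17 of the 469 reaching further. PMPCB and UQCRC1 are among those 10. This split was chosen after the values of PMPCB were seen and was not tested. The medians of the groups were 0.04 and -0.01. In the cytosol, where PMPCB shifted by 1.25, 2 of 53 and 0 of 477 such genes shifted by more than 1. XPNPEP3 has a counted part that ends within the first 100 codons and shifted by 0.02 at the OMM. It did not pass the test there on either count when scaled by library totals. Exon counts with TMM scaling called it higher (0.46, adjusted p = 0.00189), beside 2244 of 8440 genes.

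PITRM1 was measurable on exons only. It had 975 and 860 footprints in the total inputs and 1103 and 2286 in the pulldowns, enriched 5.62-fold and 5.74-fold, with a fitted log2 value of 2.51 ± 0.10 (adjusted p = 1.21e-12, rank 33 of 828). PITRM1, MIPEP and PMPCB lay between 2.33 and 2.73 on the log2 scale in the single lysates on exons; differences between these genes were not tested.

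XPNPEP3, the mitochondrial aminopeptidase P, was at 0.864-fold and 1.26-fold on CDS counts, with a fitted log2 value of 0.12 ± 0.21 (adjusted p = 0.639). Exons gave 1.19-fold and 1.03-fold. XPNPEP3 is above 400 residues in length like the MPP subunits and MIPEP, and ranked 144 of the 242 such genes tested on CDS counts.

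IMMP1L was at 1.61-fold and 1.45-fold on CDS counts (0.58 ± 0.26, adjusted p = 0.0614). It had 63.6 and 73.4 CDS footprints in the total inputs and 20.2 and 48.8 in the pulldowns. The minimum of 64 was thus met only after rounding. IMMP1L passed the test on exons (0.51 ± 0.21, adjusted p = 0.0428), with 116.5 and 128.2 exon footprints in the total inputs and 34.5 and 84.1 in the pulldowns. It also passed on CDS counts with TMM (0.90, adjusted p = 0.00992) and with DESeq2 (0.93, adjusted p = 0.0113), which made 4 of 5 members higher in each, beside 1742 and 1688 of 6742 genes. The exon call was lost without either OMM replicate (adjusted p = 0.156 and 0.252). IMMP2L had 27 and 33 CDS footprints in the total inputs, under the minimum of 64 footprints, and 12 and 13 in the pulldowns; its lysates gave 2.26-fold and 0.877-fold, so no direction can be read.

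**Figure D2:**
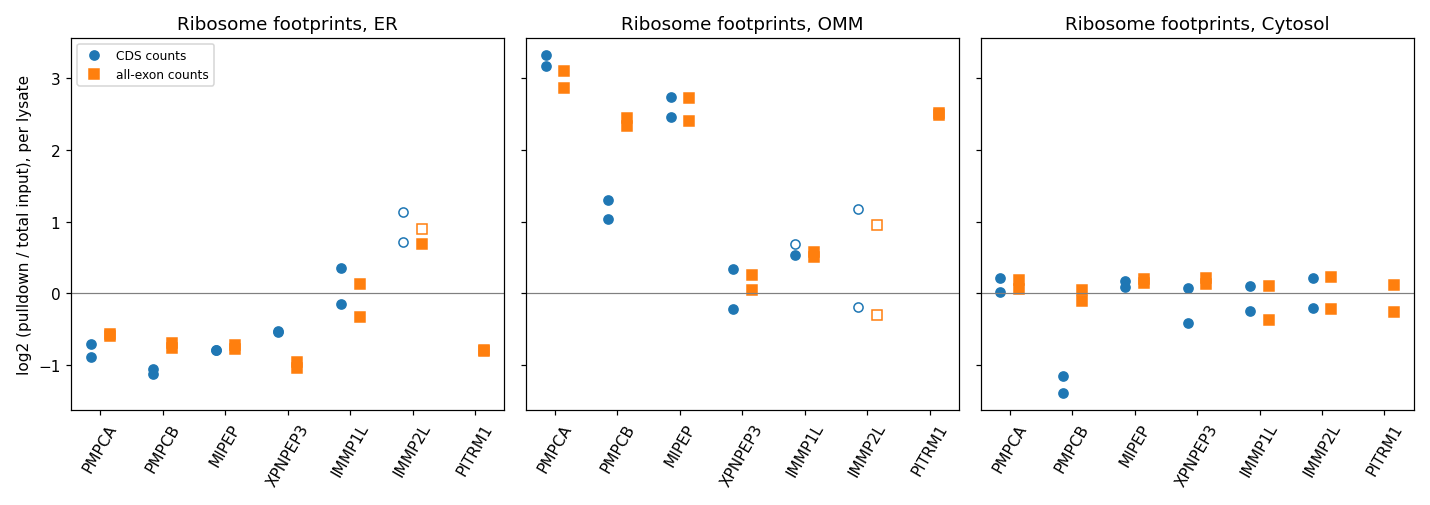
Log2 ratio of pulldown to total input for ribosome footprints of the 7 members at the ER, the OMM and in the cytosol, 1 point per lysate (n = 2 each), from CDS counts (blue circles) and all-exon counts (orange squares). Open symbols have fewer than 64 footprints in the total input, and PITRM1 has no CDS points. At the OMM the blue points of PMPCB lie near 1 and its orange points above 2, and in the cytosol the blue points of PMPCB lie below -1.

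In counts of calls, 3 of the 5 members tested on CDS counts passed as higher at the OMM, beside 17.0% of all genes tested, and none as lower, beside 45.9%. On exons 5 of 6 members passed as higher, beside 16.5%, and none as lower, beside 49.0%. The median of all genes tested was -0.38 on both counts, so the members' values relative to other genes are larger by that amount.

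At the ER, scaled by library totals, most members tested passed as lower, as most genes did, and IMMP1L did not pass. PMPCA was at 0.542-fold and 0.615-fold, PMPCB at 0.460-fold and 0.484-fold, MIPEP at 0.578-fold and 0.577-fold and XPNPEP3 at 0.688-fold and 0.696-fold on CDS counts. These 4 of the 5 tested passed as lower, beside 72.0% of all genes, and 5 of 6 on exons, again beside 72.0%; none passed as higher, beside 19.9% on CDS counts and 20.9% on exons. The median of all genes was -0.68, close to -0.79 ± 0.10 for PMPCA. IMMP1L lay above it, at 0.904-fold and 1.28-fold on CDS counts (0.09 ± 0.18), rank 127 of 733 mitochondrial genes. Under TMM scaling, which sets that median near 0, only PMPCB stayed lower (1 of 5) and IMMP1L became higher (0.74, adjusted p = 0.00278). IMMP2L, untested, had 57 and 28 footprints in the total inputs and 144 and 114 in the pulldowns, or 1.64-fold and 2.20-fold.

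In the cytosol PMPCB again differed from the other members, on CDS counts only. It had 282.4 and 216.9 CDS footprints in the total inputs and 98.5 and 201.2 in the pulldowns, or 0.449-fold and 0.381-fold (-1.29 ± 0.17, adjusted p = 4.13e-05). This was 1 of 6 members called lower, beside 5.95% of all genes, with none called higher, beside 2.04%, and PMPCB was the lowest of the 250 mitochondrial genes above 400 residues. On exons PMPCB was at 0.926-fold and 1.03-fold (-0.04 ± 0.08), and 0 of 7 members passed in edgeR, with 0 also at an unadjusted p under 0.05, beside 3.57% of all genes called higher and 6.84% lower. Without the term for the shared lysate the CDS call was lost (adjusted p = 0.99968). In replicate 1 the total input and the pulldown came from different sequencing runs, per the file headers, and the part of this in the result was not tested. The share of PMPCB exon footprints inside the counted CDS was 7.62% and 17.4% in the 2 cytosol total inputs and 3.85% and 6.87% in the pulldowns.

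Differences between locations were tested directly. OMM minus cytosol was 3.14 ± 0.14 for PMPCA, 2.44 ± 0.28 for PMPCB and 2.45 ± 0.18 for MIPEP on CDS counts, and these 3 of 5 passed as higher, beside 16.5% of all genes, with none lower, beside 39.7%. On exons it was 2.86 ± 0.13, 2.42 ± 0.12 and 2.37 ± 0.17, with PITRM1 at 2.56 ± 0.14, so 4 of 6 passed, beside 15.9%, with none lower, beside 41.9%. PMPCB is the member whose OMM value moves most between the counts, yet its difference between the OMM and the cytosol was almost the same on both, its CDS value being low at both places. OMM minus ER was 4.04 ± 0.14 for PMPCA and 2.24 ± 0.29 for PMPCB on CDS counts and 3.57 ± 0.13 and 3.11 ± 0.12 on exons. By that contrast 4 of 5 members passed on CDS counts, beside 31.0%, and 5 of 6 on exons, beside 30.2%, with none lower, beside 18.5% and 20.9%. XPNPEP3 was among them at 0.64 ± 0.26 (adjusted p = 0.0469) on CDS counts and 1.13 ± 0.14 on exons, and its CDS call was lost under TMM (0.32, adjusted p = 0.405) and without OMM replicate 2 (0.30) or either ER replicate (0.63 and 0.65). The OMM enters both contrasts, so they are not independent of each other.

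RNA-seq of ribosomes labelled at the OMM, from separate lysates, counts reads over every exon of a gene and not over the counted CDS alone. In WT cells all 7 members passed the test: 6 as higher, beside 20.2% of all genes, and XPNPEP3 as lower, beside 45.6%. PMPCA rose from 3552 and 3794 counts in the total inputs to 34567 and 37128 in the pulldowns, 7.05-fold and 8.08-fold (2.92 ± 0.13, adjusted p = 6.15e-06), at rank 4 of 1020 mitochondrial genes. PMPCB rose from 3067 and 3741 to 15076 and 20692, 3.56-fold and 4.57-fold (2.01 ± 0.14, adjusted p = 1.69e-05), at rank 53. The 2 PMPCB values did not reach the lower PMPCA value.

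MIPEP and PITRM1 had lower values as mRNA than as footprints, and so had other members. XPNPEP3 had fitted footprint values of 0.12 on CDS counts and 0.13 on exons, against -0.81 as mRNA. PMPCA had 2.99 on exons against 2.92 as mRNA, and PMPCB 2.39 against 2.01. On CDS counts PMPCB went the other way, at 1.15. MIPEP was at 2.42-fold and 2.76-fold (1.37 ± 0.16, rank 177) and PITRM1 at 1.45-fold and 1.90-fold (0.73 ± 0.12, rank 371). IMMP2L was at 1.39-fold and 1.76-fold from 131 and 155 counts in the total inputs, a call lost without either WT replicate (adjusted p = 0.0969 and 0.316), and IMMP1L at 1.51-fold and 1.40-fold. XPNPEP3 was at 0.581-fold and 0.557-fold (-0.81 ± 0.10, adjusted p = 0.000223), rank 979 of 1020. The footprint and RNA-seq lysates are different experiments, and the difference between the 2 kinds of data was not tested.

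PMPCB stayed below PMPCA in each of the 13 lysates, on either footprint count. Over the 6 RNA-seq lysates with CHX the difference was -0.85 ± 0.12 (SD, n = 6), below 0 in 6 of 6, with p = 0.03125 in a two-sided exact sign-flip permutation test, the smallest p that 6 lysates allow. It was -0.99 and -0.82 in WT, -0.72 and -0.74 in AKAP1 null and -1.001 and -0.841 in LARP4 null cells. The footprint differences on exons, -0.66 and -0.54 at the OMM, were smaller in size than each of these 6, and those on CDS counts larger. Away from the OMM the exon differences were -0.12 and -0.16 at the ER and -0.18 and -0.14 in the cytosol.

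**Figure D3:**
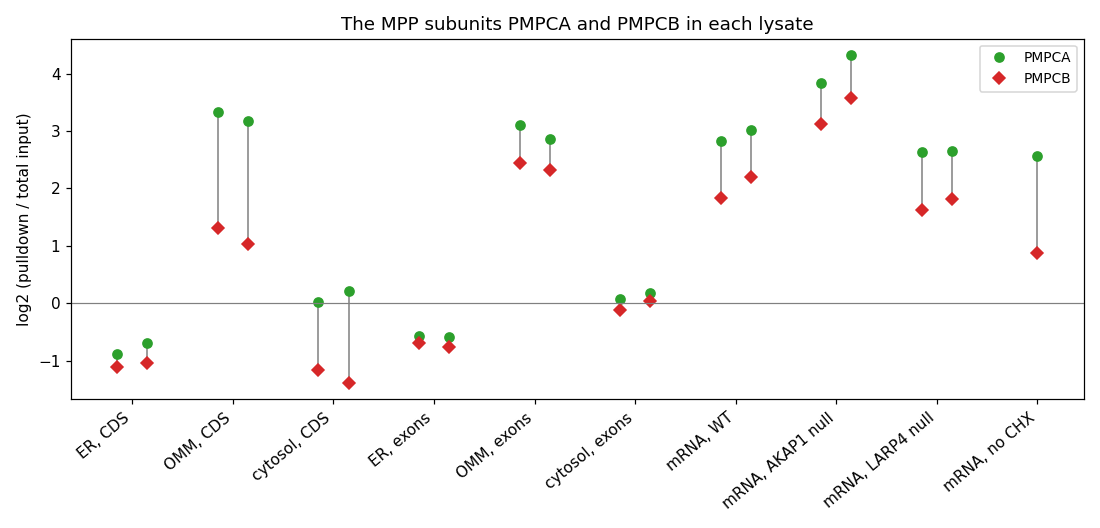
Log2 ratio of pulldown to total input for PMPCA (green circles) and PMPCB (red diamonds) in each lysate, with a grey line joining the partners, for footprints on CDS counts, footprints on exon counts and mRNA. PMPCA is above PMPCB in every lysate; the lines are longest for CDS counts at the OMM, at -2.02 and -2.13, and short for exons at the ER and in the cytosol.

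Every member except PMPCA shares part of its locus with other genes. PSMC2 overlaps PMPCB on the same strand and DNAJC2 on the opposite strand. DNAJC24 overlaps IMMP1L, DNAJB7 overlaps XPNPEP3 and LRRN3 lies inside IMMP2L, each on the opposite strand. The other overlaps, those of MIPEP and PITRM1 included, are with noncoding genes or pseudogenes, some on the same strand. Whether exons overlap was not examined. The strand setting of the RNA-seq counting is not given in the sources used here, so reads in such overlaps cannot be told apart. PMPCA has no overlapping gene in release 44.

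In AKAP1 null cells the mRNAs of the longer members were more enriched at the OMM than in WT. AKAP1 is an OMM anchor protein that binds RNA and protein kinase A. PMPCA was at 14.4-fold and 20.0-fold in the 2 AKAP1 null lysates, against 7.05-fold and 8.08-fold in WT, and its log2 difference was 1.17 ± 0.17 (adjusted p = 0.0033). PMPCB was at 8.69-fold and 11.9-fold against 3.56-fold and 4.57-fold, with a difference of 1.34 ± 0.19 (adjusted p = 0.00269). Both AKAP1 null values lay above both WT values for each partner.

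MIPEP was at 6.03-fold and 10.1-fold (difference 1.59 ± 0.22, adjusted p = 0.00247) and PITRM1 at 4.57-fold and 4.94-fold (1.52 ± 0.16, adjusted p = 0.000726). XPNPEP3 moved from below the total input to about its level, at 0.910-fold and 1.17-fold (0.86 ± 0.15, adjusted p = 0.00656). IMMP1L went the other way, to 0.789-fold and 0.711-fold (-0.95 ± 0.15, adjusted p = 0.00414), and IMMP2L was at 1.06-fold and 1.03-fold (-0.58 ± 0.32, adjusted p = 0.237). Without WT replicate 1 the calls of PMPCA (1.07, adjusted p = 0.0516), XPNPEP3 (0.89) and IMMP1L (-0.90) were lost. Those of XPNPEP3 and IMMP1L were also lost without WT replicate 2 (0.83 and -1.01) and without AKAP1 null replicate 2 (0.68 and -0.88). Without the term for the shared lysate PMPCB (1.36, adjusted p = 0.183) and XPNPEP3 (0.86, adjusted p = 0.0510) were not called. With all libraries 5 of 7 members passed as higher, beside 6.52% of all genes, and 1 as lower, beside 7.96%. The counts over all genes depended on the libraries in the fit: 903 rose and 1103 fell of 13856 with all libraries, 4529 and 1934 of 13548 with only the AKAP1 null and WT libraries, and 4546 and 1942 of 13825 or 4524 and 1943 of 13631 without LARP4 null replicate 1 or 2. They were 121 to 208 and 358 to 537 without an AKAP1 null or WT replicate, and 98 and 331 without the term for the shared lysate.

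These directions followed protein length, as for other mitochondrial genes. The 5 members that rose have 489 to 1037 residues, and IMMP1L has 166 and IMMP2L 175. Of 363 mitochondrial genes above 400 residues 208 rose and 6 fell, with a median of 0.73, and of 254 under 200 residues 0 rose and 167 fell, with a median of -0.87. Within the long genes MIPEP ranked 12, PITRM1 21, PMPCB 50, PMPCA 95 and XPNPEP3 165 of 363, so the 2 most enriched members were not those with the largest rise. The median of all genes was 0.19 in this contrast and 0.01 under TMM, and all 6 calls kept their direction and significance under both TMM and DESeq2 scaling.

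The gap between the partners narrowed by 0.17 in AKAP1 null against WT cells, with p = 0.333 in an exact permutation test, the smallest that this test can give with 2 lysates against 2; the narrowing was not tested in a fit across all genes. Within AKAP1 null cells alone 4 members passed as higher at the OMM, beside 13.9%, and IMMP1L as lower, beside 28.1%. That call of IMMP1L (-0.42 ± 0.10) was lost under TMM, at adjusted p = 0.0725, and without either AKAP1 null replicate.

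**Figure D4:**
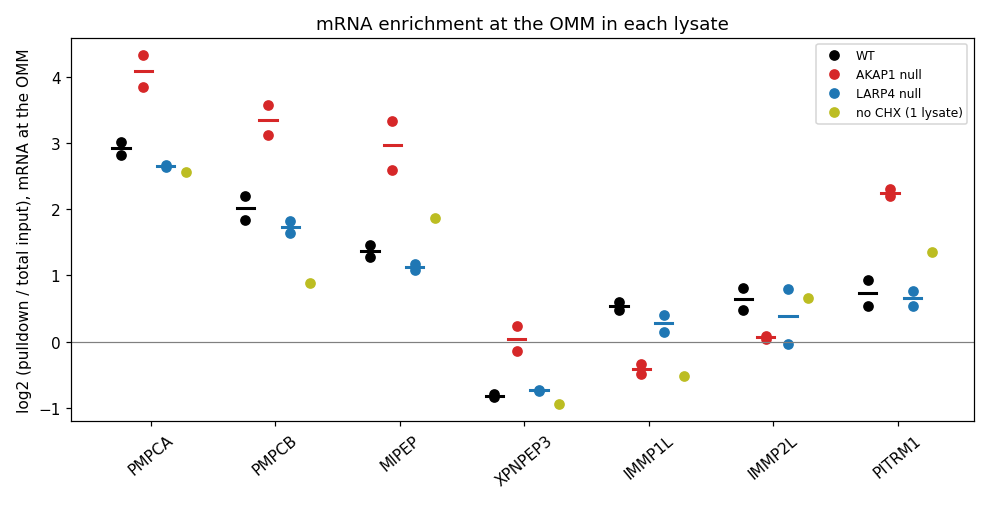
Log2 ratio of pulldown to total input for the mRNA of the 7 members at the OMM, 1 point per lysate, in WT (black), AKAP1 null (red), LARP4 null (blue; n = 2 each, horizontal bars are means) and cells without CHX (olive, 1 lysate). Red points lie above black ones for PMPCA, PMPCB, MIPEP, XPNPEP3 and PITRM1 and below them for IMMP1L and IMMP2L.

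In LARP4 null cells no member passed the test against WT with all libraries in the fit. LARP4 is an RNA-binding protein that binds poly(A) tails. PMPCA was at 6.20-fold and 6.31-fold, a difference of -0.27 ± 0.17 (adjusted p = 0.374), and PMPCB at 3.10-fold and 3.52-fold, a difference of -0.29 ± 0.19 (adjusted p = 0.388). Without LARP4 null replicate 1, IMMP1L (-0.39) and IMMP2L (-0.70) passed as lower, but 1143 of 13825 genes were then called lower and 4521 higher. The members' differences ran from -0.29 to 0.08, all below the all-gene median of 0.17. In edgeR 0 of 7 members passed, and 0 at an unadjusted p under 0.05; DESeq2 also passed 0, with 3 at an unadjusted p under 0.05. Of all 13856 genes 0 passed in edgeR (0.0%), with 2270 at an unadjusted p under 0.05, whereas DESeq2 called 4 higher and 491 lower. The 0 calls rest on both LARP4 null replicates, since without replicate 2 there were 3 higher and 90 lower of 13631, and with no minimum on counts 771 and 316 of 39877. Within LARP4 null cells 4 members passed as higher at the OMM, beside 22.8%, and XPNPEP3 as lower, beside 30.0%. This comparison and the AKAP1 null comparison share the WT libraries.

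No member was called in total input between the lines, in a fit that did not call AKAP1 itself in AKAP1 null cells (-2.15 ± 0.22, adjusted p = 0.242) and called LARP4 in LARP4 null cells (-1.56 ± 0.12, adjusted p = 0.0405). Log2 differences ran from -0.12 to 0.22 in AKAP1 null against WT and from -0.15 to 0.33 in LARP4 null against WT. In edgeR 0 of 7 members passed in either comparison, and 0 at an unadjusted p under 0.05; DESeq2 gave 1 at an unadjusted p under 0.05 in AKAP1 null cells and 0 in LARP4 null cells. Of all 13977 genes 0 passed in AKAP1 null cells (0.0%), and 1 as higher and 1 as lower (0.00715% each) in LARP4 null cells, with 489 and 509 at an unadjusted p under 0.05. DESeq2 called 8 genes higher and 7 lower in AKAP1 null cells and 14 and 14 in LARP4 null cells.

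Without CHX, in 1 lysate and with no test, PMPCA stayed 5.91-fold enriched and PMPCB was at 1.84-fold, a gap of -1.68, wider than in each of the 6 CHX lysates. The total input of PMPCB in this lysate was 21.5 CPM per kilobase, above 8.93 to 13.9 in the other 6, while that of PMPCA was 11.8 against 12.7 to 15.9. MIPEP was at 3.65-fold and PITRM1 at 2.57-fold, both above their WT values, XPNPEP3 was at 0.521-fold, IMMP2L at 1.58-fold and IMMP1L at 0.695-fold, below its WT values. CHX and the length of the light pulse changed together, so they cannot be told apart.

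Likeness over the 12 lysates with CHX (6 of footprints and 6 of RNA-seq) was measured as the Euclidean distance of log2 enrichment, among 6448 other genes tested in all contrasts on CDS counts. Nearest to PMPCA were METTL17 at 1.19, OXCT1 at 1.59, PCCB at 1.99, HADHB at 2.08 and SUCLG2 at 2.30, all nuclear-encoded mitochondrial genes, and PMPCB came at rank 22 with 4.15. Nearest to PMPCB were ACAT1, GATB, DLD, OXSM and ERAL1, at 2.07 to 2.29, and PMPCA came at rank 74. With exon counts for the footprints PMPCB moved to rank 14 of the 8223 genes nearest to PMPCA, at a distance of 2.29, and PMPCA to rank 40 of those nearest to PMPCB. The nearest gene to PMPCA was then UQCRC1, at 0.87. By Pearson correlation, which ignores the size of the gap, the partners were closer in rank: on exons PMPCB was at rank 3 of those nearest to PMPCA and PMPCA at rank 12 of those nearest to PMPCB (r = 0.993), and on CDS counts the ranks were 25 and 21 (r = 0.946). The lysates share libraries and depth across genes, so these ranks are descriptions.

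UQCRC1 and UQCRC2, the complex III core subunits of the MPP fold, and IDE and NRDC, peptidases of that fold which act mostly outside mitochondria, give a scale for the pair. On exons at the OMM the log2 enrichment was 3.25 ± 0.09 for UQCRC1, 0.71 ± 0.09 for UQCRC2, -0.69 ± 0.09 for IDE and -0.84 ± 0.10 for NRDC. In WT mRNA it was 3.22 ± 0.15, 0.75 ± 0.09, -0.74 ± 0.09 and -0.50 ± 0.10. On these measures PMPCA and PMPCB were closer to each other than UQCRC1 and UQCRC2 were, but on CDS counts at the OMM the order turned round, with UQCRC1 at 1.82 ± 0.12 and UQCRC2 at 0.46 ± 0.10 against 3.25 for PMPCA and 1.15 for PMPCB. Differences between these gaps were not tested. In AKAP1 null against WT cells UQCRC1 rose by 1.08 ± 0.20, UQCRC2 by 1.25 ± 0.13 and IDE by 0.64 ± 0.12. NRDC was not called, at 0.33 (adjusted p = 0.146, edgeR).

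Other mitochondrial proteases and the presequence import route were counted as neighbours in the pathway. Of 13 proteases tested on exons at the OMM 9 were higher and 0 lower, beside 16.5% and 49.0% of all genes. Their median was 0.63, from CLPB at 2.27 to LAP3 at -0.06, against the members' median of 2.45. Of 16 import genes tested 9 were higher and 1 lower, beside the same shares. The median of these genes was 0.37, from TIMM44, which ties the import motor to the channel, at 2.22, to TOMM70, an import receptor, at -0.63. In WT mRNA 10 of 15 proteases and 14 of 18 import genes were higher, beside 20.2% of all genes. The medians were 0.44 and 0.52 against 0.73 for the members. As lower, 0 proteases and 2 import genes passed, beside 45.6%, with GRPEL2 lowest at -1.09. In AKAP1 null against WT cells 9 of 15 proteases rose, beside 6.52% of all genes, and CLPP fell, beside 7.96%. Of 18 import genes 4 rose, led by HSPA9 at 1.40, and 6 fell, with the small protein ROMO1 lowest at -1.95.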

How the data were processed

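Members and gene lists were chosen with earlier results of these data known. The authors aligned footprints to GRCh38 with TopHat after rRNA and tRNA reads had been removed with Bowtie, and deposited RPKM beside estimated counts of footprints on exons, CDS and UTRs from the plastid toolkit. These deposited values are estimated counts because reads are spread over positions. For RNA-seq the authors aligned reads with STAR and deposited counts from featureCounts; the deposited FPKM-like score is 10 times FPKM, and only its ratios were used. Between 3 and 7 lines of 1 broken entry per RNA-seq file were left out, as were 1079 footprint entries naming several genes.

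Rounded counts were tested with edgeR 4.0.16 (quasi-likelihood, R 4.3.3, two-sided, Benjamini-Hochberg over all genes tested, adjusted p below 0.05). The fit had a term per lysate and a pulldown effect per location or line, scaled by library totals; total inputs alone were scaled by TMM. Genes needed 64 footprints, after rounding, in both total inputs, or a mean of 64 RNA-seq counts. Per-lysate ratios had 0.5 counts added. Total input and pulldown come from the same lysate, per the study's methods, and their deviations correlated at 0.62 to 0.89. Named genes are the members, AKAP1, LARP4, the 4 relatives, the extremes of the lists and the 5 nearest genes. Alternatives were DESeq2 1.42.0, TMM, other minimums, no replicate block, other libraries in the fit, exon counts and leaving out each replicate. The procedure was tested on simulated data. Sequences were read with Biopython 1.88 from GENCODE release 44. The labels call the RNA-seq input polyA RNA, whereas the methods name rRNA depletion.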

Additional observations from a re-analysis of the deposited data

Results flagged for a closer look

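Differences between groups that passed the test of the difference itself are listed here with the log2 value. Between AKAP1 null and WT cells the mRNA enrichment of PMPCA differed by 1.17, PMPCB by 1.34, MIPEP by 1.59, XPNPEP3 by 0.86 and PITRM1 by 1.52, and that of IMMP1L by -0.95. Between the OMM and the cytosol the footprint enrichment on CDS counts differed by 3.14 for PMPCA, 2.44 for PMPCB and 2.45 for MIPEP. On exon counts it differed by 2.86, 2.42 and 2.37 for these genes and by 2.56 for PITRM1. Between the OMM and the ER it differed on CDS counts by 4.04 for PMPCA, 2.24 for PMPCB, 3.38 for MIPEP and 0.64 for XPNPEP3. On exon counts the values were 3.57 for PMPCA, 3.11 for PMPCB, 3.30 for MIPEP, 1.13 for XPNPEP3 and 3.30 for PITRM1.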

How the results depend on the processing

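Of 572 recomputed values for single members, 511 kept their direction and side of the threshold, 40 lost significance, 18 gained it and 3 reversed, none of which was called after reversal. The reversals were at the ER: XPNPEP3 became 0.0825 with DESeq2 and 0.120 with TMM, and PMPCA became 0.0266 on exons with TMM. TMM moved the median of all genes from -0.68 to -0.03 at the ER, from -0.38 to -0.06 at the OMM, from -0.28 to 0.01 in WT mRNA and from 0.19 to 0.01 in AKAP1 null against WT. The share of calls that were higher then moved from 21.6% to 53.5% at the ER, 26.99% to 51.4% at the OMM, 29.4% to 54.1% for OMM minus cytosol, 62.6% to 38.5% for OMM minus ER, 30.7% to 52.8% in WT mRNA, 33.2% to 49.2% in AKAP1 null cells and 45.0% to 16.7% for AKAP1 null against WT. Exon counts with TMM, and exon counts in the nearest-gene ranks, were chosen after seeing the data.

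At the ER, 1 member was called higher under DESeq2, TMM, exons with TMM, a minimum of 10 footprints and no minimum, and 0 were lower under DESeq2, 1 under TMM and 1 on exons with TMM. Over all genes the calls higher there were 1918 of 7390, 2160 of 7390, 2754 of 9004, 2228 of 10003 and 2573 of 13697 in that order. The calls lower were 1566 of 7390 under DESeq2, 1876 of 7390 under TMM and 2323 of 9004 on exons with TMM. At the OMM 5 members were higher on exons and 6 on exons with TMM, beside 1391 and 2244 of 8440 genes. For OMM minus cytosol 5 were higher on exons with TMM, beside 2070 of 8264. In the cytosol 0 were lower on exons, without or with TMM, beside 614 and 570 of 8983. In AKAP1 null cells 0 were lower under DESeq2 and TMM, beside 2508 and 2865 of 13856. For AKAP1 null against WT 2 were lower when only the libraries compared were fitted, beside 1934 of 13548 genes. On exons the mean gap between PMPCB and PMPCA was -0.60 at the OMM, -0.14 at the ER and -0.16 in the cytosol. By distance on exons PMPCB came at rank 14 of the genes nearest to PMPCA and PMPCA at rank 40 of those nearest to PMPCB. By Pearson correlation these ranks were 3 and 12 on exons and 25 and 21 on CDS counts. Except where scaling or the counted region is the alternative itself, the cause was not tested.

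With no replicate block for the shared lysate, 2 members were lower at the ER, 0 lower in the cytosol, 2 higher for OMM minus ER, 0 lower in AKAP1 null cells and 3 higher for AKAP1 null against WT. Over all genes these calls were 3177 of 7390, 29 of 7173, 507 of 6691, 1566 of 13856 and 98 of 13856. A replicate block over the total inputs, whose numbers are shared between lines only as numbers (r = 0.21 and 0.31 with WT), called 0 members, as without it. Leaving out 1 replicate gave 0 lower in AKAP1 null cells each time, 3 to 5 higher and 0 to 1 lower for AKAP1 null against WT, and 0 to 2 lower for LARP4 null against WT, where the calls over all genes ran from 0 to 4521 higher and 0 to 1143 lower. The mean gap between PMPCB and PMPCA in mRNA ran from -0.88 to -0.82 with 1 lysate left out, and its exact p was then 0.0625, the smallest that 5 lysates allow. Depth limits IMMP2L, with 27 to 57 CDS footprints in the ER and OMM total inputs.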
